A study of Homo sapiens with 8 samples.

Results

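The 48 genes described here act in the G2 phase of the cell cycle and in mitosis, and were taken as the rows of the count table whose gene symbol is on a list of such genes, 48 of the table's 27696. When a cell leaves G2, cyclin B activates the kinase CDK1, chromosomes condense, and kinesin motors build a spindle whose microtubules hold the chromosomes at their kinetochores. The spindle checkpoint holds back the anaphase-promoting complex until every kinetochore is attached, and that complex then marks securin and cyclin B for destruction, so that the sister chromatids part and the cell divides. Most of these transcripts peak in G2 and M, under the MuvB complex with B-MYB and FOXM1, and are repressed when a cell rests or becomes senescent.

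The RNA came from IMR90, primary fibroblasts of human embryonic lung, that had been kept for 3 days in medium conditioned by a second IMR90 culture, IMR90-ER:RAS, in which 4-hydroxytamoxifen (4-OHT) switches on an oncogenic RAS fused to an oestrogen receptor domain and so drives senescence. The recipients were normal IMR90 fibroblasts, and the groups D0, D4, D7 and D10 are named after the day of 4-OHT on which the donor cells' medium was taken. D0 is therefore a control that received conditioned medium as well, and according to the study's methods the medium was collected without serum and given with little serum. Each group has 2 libraries, 1 from each of 2 independent experiments, and the study used them to follow how medium from successive stages of senescence acts on normal cells. All recipient cells are of 1 line, and in bulk RNA fewer dividing cells and less RNA per cell cannot be told apart.

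The 8 libraries held 11708193 to 13395912 counts, and expression is given as CPM, the usual scaling of each count to a fixed library total, here after TMM scaling of the libraries. In the filter on low counts 47 of the 48 genes passed, and 0.525 CPM was the mean of SPC25, a kinetochore gene that did not, with 1 to 16 counts in a library. The other means ran from 0.578 CPM for CDC25C to 72.0 CPM for BUB3, so that many of these genes rest on under 100 counts a library. All 12 fibroblast markers tested were above 1 CPM in every library and summed to 21287 to 58108 CPM, while the epithelial genes CDH1 and SFTPC, the endothelial genes PECAM1 and CDH5 and the leukocyte gene PTPRC were each under 1 CPM in every library. Over the libraries the epithelial markers summed to 46.5 to 95.8 CPM, mostly KRT8 and KRT18, the endothelial markers to 42.5 to 122 CPM, of which TEK gave 40.4 to 120.5, and the leukocyte markers to 1.89 to 4.11 CPM. The lowest fibroblast sum, 21287 CPM, was that of the D10 library of experiment 2, against 43078 CPM or more in the other 7. That library stands apart, and fitted values of members at D10 are given with and without it where they are compared. Collagens are among these markers, and the study reports several collagens among the genes lowered by medium from senescent cells. Whether the low sum is a response to the D10 medium or a trait of that library was not tested.

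In experiment 2 the mitosis genes were higher after D4 medium than after D0 medium and lower after D10 medium, whereas in experiment 1 their sum and their median stayed near the D0 level. Summed over the 48 genes, expression was 349.8, 366, 395 and 362 CPM at D0, D4, D7 and D10 in experiment 1. The same sums in experiment 2 were 408, 661, 531 and 319 CPM. The D4 and D7 libraries of experiment 2 were the highest of the 8 and its D10 library was the lowest, whereas the 4 libraries of experiment 1 lay close together. BUB3 and CDC25B, the most abundant members by CPM, make up a large part of each sum. Without them the sums were 228, 239.9, 274 and 247 CPM in experiment 1 and 293, 529, 407 and 208 CPM in experiment 2.

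**Figure D1:**
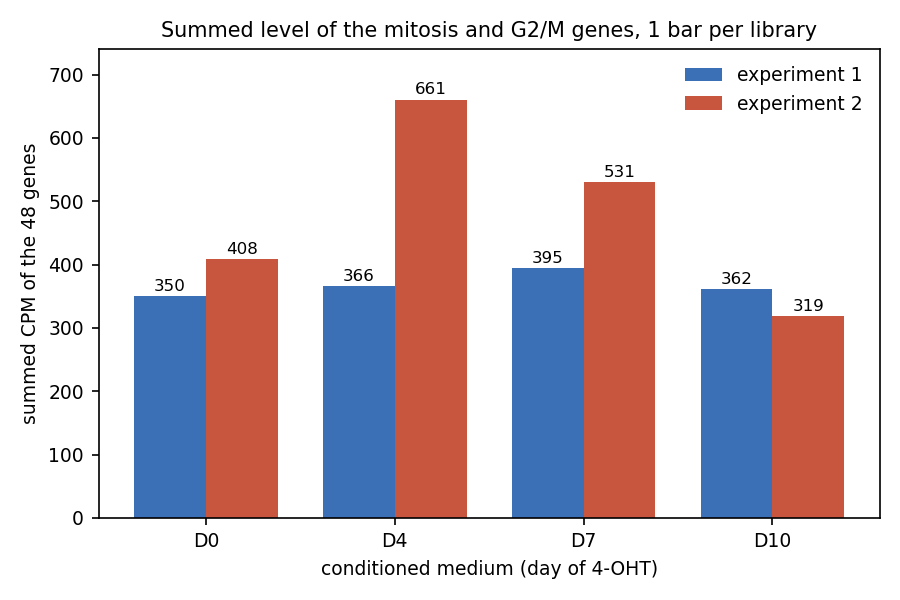
Bars give the summed CPM of the 48 mitosis and G2/M genes in each library, by medium on the horizontal axis and by experiment in colour. The 4 bars of experiment 1 lie between 349.8 and 395 CPM, while those of experiment 2 run from 319 CPM at D10 to 661 CPM at D4.

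The same contrast held gene by gene. In experiment 2, 43 of the 47 tested members had their highest value of the 4 media at D4, against 21.5% of all 13798 genes tested, and 41 had their lowest at D10, against 36.4% of all genes. In experiment 1, 10 members were highest at D4 (30.5% of all genes) and 14 were lowest at D10 (27.5%), and the medium with most maxima was D7, with 23 of the 47 (18.7%). Changes within an experiment are differences of log2 CPM (prior count 2) between its own libraries. Their median over the members, D4 against D0, was 0.06 in experiment 1 and 1.06 in experiment 2, while the median over all genes was 0.002 and 0.004. For D7 the member medians were 0.21 and 0.60, and for D10 against D0 they were 0.03 and −0.69. By these medians the D10 level lay at the D0 level in experiment 1 and below it in experiment 2.

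**Figure D2:**
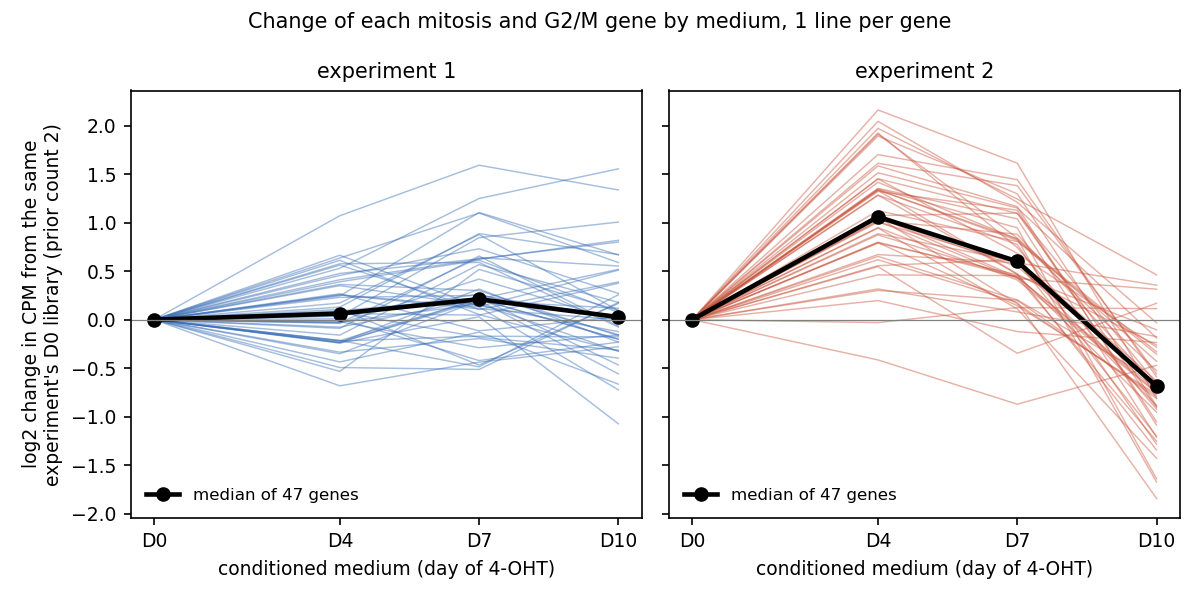
Each thin line is 1 of the 47 tested genes and gives its log2 change in CPM from the D0 library of the same experiment, with the median in black and a panel per experiment. The median of experiment 1 stays between 0 and 0.21, and that of experiment 2 is 1.06 at D4 and −0.69 at D10.

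For most members the D4 value of experiment 2 lay outside counting error. An exact 95% counting interval for the ratio of D4 to D0 lay above 1 for 43 of 47 members in experiment 2, where 20.3% of all genes did so, and for 5 of 47 in experiment 1, where 19.7% of all genes did. Such an interval compares a pair of libraries and covers counting error only, not the spread between cultures. Both experiments put D4 above D0 for 26 of the 47 members, against 29.8% of all genes, and both put it below for 1 (CDC25B). Since 45 members were higher in experiment 2, the 26 were mostly set by experiment 1, in which 27 were higher. Across the 47 members the D4 changes of the 2 experiments correlated with r = −0.02, and across all genes with r = 0.40, a description across genes, which are not independent replicates.

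Against that spread no member passed the test. With edgeR's quasi-likelihood test, Benjamini-Hochberg adjusted over all 13798 genes, 0 of the 47 members had an adjusted p under 0.05 for D4 against D0, and 0 genes of all tested, or 0%, did. The count at an unadjusted p under 0.05 was 2 of 47, both higher at D4 (PTTG1 and DLGAP5), against 2.96% of all genes, and the median fitted log2 fold change was 0.76, against 0.0088 over all genes. With the experiment as a replicate block, 0 members passed while 0.275% of all genes did, and 8 had an unadjusted p under 0.05, against 8.15% of all genes. DESeq2 also called 0 members, with 4 at an unadjusted p under 0.05, against 2.87%. The fitted median became −0.06 without the D4 library of experiment 2 and 1.20 without that of experiment 1.

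Keratin genes were also higher at D4 than at D0. The summed epithelial markers were at 56.8 to 80.2 CPM at D0, 81.0 to 95.8 at D4, 70.7 to 71.0 at D7 and 46.5 to 49.96 at D10, and the tested ones, KRT8, KRT18 and KRT19, were 3 of 3 higher at D4 than at D0 and 3 of 3 lower at D10 than at D4 in both experiments. KRT18 had log2 changes of 0.22 and 0.57 at D4 and −1.13 and −1.25 for D10 against D4, with an adjusted p of 0.276 for the latter in edgeR's quasi-likelihood test and 0.0103 with the replicate block. The defining epithelial genes EPCAM, CDH1 and SFTPC stayed under 1 CPM in every library, and the part of these keratins in the level of the mitosis genes was not tested.

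Promoters were searched because genes of this kind are known to share the cell cycle genes homology region (CHR), the element that MuvB binds, next to CCAAT boxes, which NF-Y binds. RefSeq promoters on GRCh38.p14, from 250 bases before to 50 after the start, were held for 41 of the 48 genes, as 54 promoters. A CHR, TTTGAA or TTCGAA on either strand, was in 34 of the 54 (63.0%) and in 16.4% of all 35116 promoters of that length, and a CCAAT on either strand was in 36 (66.7%) and in 34.6% of all. Both were in 25 of the 54 (46.3%) and in 6.38% of all. A match is a run of letters, not a site shown to be bound. The 100 bases before the start are printed for 4 genes with a CHR that are described below and, as a contrast, for CDC25B, whose level was much the same in all libraries. Of its 4 promoters held, only the printed one has a CHR, and which of them is used was not measured. Capitals mark CHR and CCAAT matches, also read as TTCAAA and ATTGG on the other strand, and in MKI67 a CHR and a CCAAT share a base.
MKI67: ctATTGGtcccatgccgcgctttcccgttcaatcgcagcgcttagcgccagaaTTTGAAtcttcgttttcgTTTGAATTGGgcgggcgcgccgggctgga
CDC20: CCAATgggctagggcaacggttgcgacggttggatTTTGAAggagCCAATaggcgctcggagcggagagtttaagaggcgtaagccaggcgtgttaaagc
CCNB2: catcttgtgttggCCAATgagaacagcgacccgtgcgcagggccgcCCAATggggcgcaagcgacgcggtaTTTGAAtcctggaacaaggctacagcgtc
PLK1: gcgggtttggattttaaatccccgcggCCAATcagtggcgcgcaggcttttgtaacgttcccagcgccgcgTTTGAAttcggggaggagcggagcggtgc
CDC25B: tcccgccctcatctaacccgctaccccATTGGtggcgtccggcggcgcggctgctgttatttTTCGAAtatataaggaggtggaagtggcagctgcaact
These stretches lie at chr10:128126424-128126523 (- strand), chr1:43358881-43358980 (+ strand), chr15:59105046-59105145 (+ strand), chr16:23678789-23678888 (+ strand) and chr20:3796210-3796309 (+ strand), each printed 5′ to 3′ along the gene. The 40 tested members with a promoter were then classed by the first promoter held for each gene. The 28 with a CHR in it had a median D4 change in experiment 2 of 1.10, on the log2 scale. The 12 without one there had 1.15, and the difference between them was not tested. CDC25B and CDC25C, which have a CHR in another of their promoters, are counted among the 12.

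MKI67 and TOP2A took opposite courses in the experiments after D4. MKI67 encodes the Ki-67 antigen, which coats mitotic chromosomes and marks dividing cells, and lies at chr10:128096659-128126385 on GRCh38 (GENCODE 29, as for all gene positions here). It was at 4.69, 4.81, 8.55 and 9.58 CPM at D0, D4, D7 and D10 in experiment 1 and at 6.55, 24.8, 16.3 and 3.47 CPM in experiment 2. Its 2 highest libraries were D4 and D7 of experiment 2, its lowest was D10 of the same experiment, and the D4 and D0 groups overlapped. The fitted log2 fold change at D4 was 1.39 ± 0.77 (SE), with an unadjusted p of 0.108 in edgeR's test and an adjusted p of 1. TOP2A (chr17:40388516-40417950), the topoisomerase that untangles sister chromatids, was at 11.6, 9.78, 13.4 and 16.6 CPM in experiment 1 and at 16.6, 33.8, 30.7 and 10.3 CPM in experiment 2. It likewise peaked at D4 in experiment 2 and was highest at D10 in experiment 1. The condensin genes NCAPG and NCAPH had D4 changes of 0.39 and −0.02 in experiment 1 and 1.35 and 1.45 in experiment 2. SMC4, the core subunit of both condensins, had D4 changes of 0.48 and 0.46 and was on another level in each experiment, at 7.71 to 13.5 CPM in experiment 1 and 23.8 to 35.3 CPM in experiment 2.

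Of the cyclins and their partners, the B cyclins came closest to the same course in both experiments. CCNB1 (chr5:69167010-69178245), the cyclin that carries CDK1 into mitosis, was at 14.3, 18.3, 15.9 and 13.1 CPM at D0, D4, D7 and D10 in experiment 1 and at 12.4, 19.5, 14.3 and 7.89 CPM in experiment 2. Both experiments had their highest value at D4 and their lowest at D10, and the D4 libraries lay above all other libraries. CCNB2 (chr15:59105078-59125045) followed the same order, with 3.60, 5.59, 3.74 and 2.85 CPM in experiment 1 and 4.08, 6.34, 4.63 and 1.03 CPM in experiment 2. Fitted log2 fold changes at D4 were 0.50 ± 0.29 for CCNB1 and 0.63 ± 0.45 for CCNB2, with unadjusted p of 0.116 and 0.199 in edgeR's test. CDK1 itself (chr10:60778331-60794852) was at 1.93, 2.95, 2.98 and 1.82 CPM in experiment 1 and at 2.91, 7.31, 5.09 and 1.10 CPM in experiment 2, so that D4 and D7 were level in the first and D4 stood out in the second. CCNA2, the cyclin of S phase and early mitosis, had D4 changes of −0.44 and 0.87. FOXM1 (chr12:2857681-2877155), the transcription factor of the late cell cycle genes, was at 12.3, 9.62, 14.1 and 8.31 CPM and 8.88, 18.0, 13.4 and 4.73 CPM, lower at D4 than at D0 in experiment 1 and higher in experiment 2.

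The CDC25 phosphatases activate CDK1. CDC25B (chr20:3786772-3806121) was at 56.1, 48.1, 49.8 and 49.6 CPM in experiment 1 and at 44.8, 43.8, 48.8 and 48.4 CPM in experiment 2, and its fitted log2 fold change was −0.13 ± 0.20 at D4 and −0.04 ± 0.20 at D10. It was the only tested member lower at D4 than at D0 in both experiments, and both fitted values are smaller than their SE. CDC25C was at 0.670, 0.543, 0.687 and 0.238 CPM in experiment 1 and at 0.291, 1.12, 0.835 and 0.237 CPM in experiment 2, on 3 to 15 counts a library and 3 in each D10 library. Its ratio of D10 to D4 was 0.437 (95% counting interval 0.0730 to 1.92) in experiment 1 and 0.212 (95% counting interval 0.0393 to 0.748) in experiment 2.

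**Figure D3:**
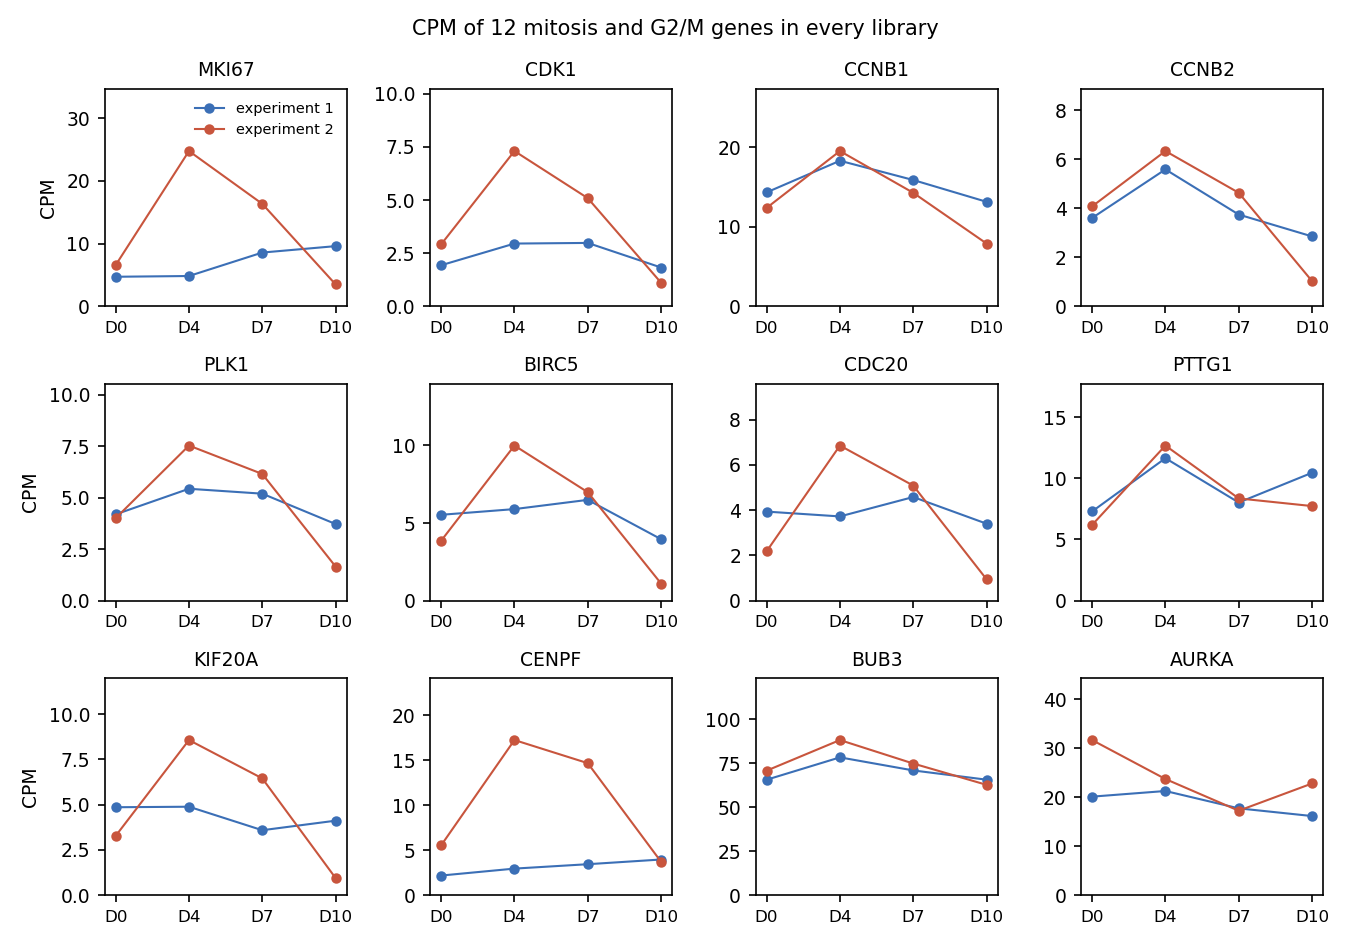
CPM of 12 members in every library, by medium, with a line per experiment and a vertical axis from 0 in each panel. CCNB1, CCNB2, PLK1, PTTG1, BUB3 and KIF20A are highest at D4 in both experiments, KIF20A in experiment 1 with 4.89 against 4.86 CPM at D0. MKI67, CDK1, CDC20, BIRC5 and CENPF are highest at D4 in experiment 2 alone. AURKA is below its D0 level at D4 in experiment 2.

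Among the mitotic kinases, PLK1 (chr16:23677656-23690367), which acts on centrosomes, kinetochores and cytokinesis, was at 4.19, 5.43, 5.19 and 3.72 CPM in experiment 1 and at 4.00, 7.53, 6.15 and 1.66 CPM in experiment 2. D4 was the highest medium and D10 the lowest in both, with a D4 change of 0.36 in experiment 1 and 0.89 in experiment 2. AURKB (chr17:8204733-8210600), the kinase that corrects wrong attachments, was at 1.68, 1.63, 2.29 and 1.66 CPM and 1.16, 3.06, 1.67 and 0.947 CPM, on 12 to 41 counts a library. BIRC5, or survivin, its partner in the chromosomal passenger complex, was at 5.53, 5.90, 6.49 and 3.96 CPM and 3.86, 9.99, 6.99 and 1.10 CPM. Its D10 value in experiment 2 was 14 counts, the lowest of the 8 libraries. AURKA (chr20:56369389-56392337), the centrosomal kinase, took another course, with 20.1, 21.3, 17.7 and 16.2 CPM in experiment 1 and 31.7, 23.7, 17.2 and 22.8 CPM in experiment 2. Its fitted log2 fold change at D4 was −0.20 ± 0.28, and it was the tested member with the lowest D4 change in experiment 2. PLK4, which starts centriole duplication, had D4 changes of −0.49 and 1.34.

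All 5 spindle checkpoint genes were higher at D4 than at D0 in both experiments, against 29.8% of all genes. Their medians were 0.24 and 1.06 on the log2 scale, and none passed the test. In experiment 1 the counting interval lay above 1 for 1 of the 5, BUB3, against 19.7% of all genes. BUB1 (chr2:110637698-110678114), a checkpoint kinase, was at 2.09, 2.48, 2.52 and 2.14 CPM in experiment 1 and at 2.11, 5.89, 3.87 and 1.42 CPM in experiment 2, and the D4 library of experiment 2 was its highest. BUB3 (chr10:123154277-123170467), which brings BUB1 and BUBR1 to kinetochores, was at 65.5, 78.2, 70.8 and 65.6 CPM and 70.7, 88.1, 74.7 and 62.6 CPM. With 782 to 1181 counts a library it is the most deeply counted member, D4 was its highest medium in both experiments, and the fitted log2 fold change was 0.29 ± 0.19 at D4, with a counting interval of the D4 to D0 ratio of 1.09 to 1.31 in experiment 1 and 1.14 to 1.36 in experiment 2. TTK, the kinase MPS1, was at 0.754, 0.931, 0.840 and 0.396 CPM and 1.75, 3.80, 1.97 and 0.947 CPM, and its lowest library was D10 of experiment 1, with 5 counts. BUB1B, or BUBR1, which binds CDC20, and MAD2L1, its partner in that complex, had D4 changes of 0.24 and 0.11 in experiment 1 and 1.07 and 0.55 in experiment 2.

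In the group that drives anaphase, PTTG1 (chr5:160421822-160428744), which encodes securin, had the lowest unadjusted p of the 47 at D4. It was at 7.29, 11.6, 8.02 and 10.5 CPM at D0, D4, D7 and D10 in experiment 1 and at 6.19, 12.7, 8.35 and 7.73 CPM in experiment 2. Both D4 libraries lay above the other 6, and the fitted log2 fold change was 0.85 ± 0.27 (unadjusted p = 0.0138 and adjusted p = 1 in edgeR's test). Both D10 libraries also lay above their own D0, by 0.51 and 0.31 on the log2 scale. CDC20 (chr1:43358955-43363203), the activator of the anaphase-promoting complex, was at 3.94, 3.72, 4.58 and 3.40 CPM in experiment 1 and at 2.18, 6.86, 5.09 and 0.947 CPM in experiment 2. Experiment 2 held both its highest library, D4, and its lowest, D10, with 12 counts. UBE2C, the ubiquitin-conjugating enzyme of the complex, had D4 changes of 0.56 and 1.33.

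The kinetochore genes had D4 changes from −0.68 (CENPA) to 1.07 (NUF2) in experiment 1 and from 0.56 (SPC24) to 1.92 (CENPA) in experiment 2. CENPA, the centromeric histone H3 variant, had opposite signs, with 13 counts at D0 and 8 at D4 in experiment 1 and 6 and 28 in experiment 2. CENPF (chr1:214603195-214664588), a large kinetochore protein made in G2, was at 2.18, 2.95, 3.44 and 3.96 CPM in experiment 1 and at 5.53, 17.2, 14.7 and 3.71 CPM in experiment 2. Every library of experiment 2 except D10 lay above all of experiment 1. CENPE, the kinesin that moves chromosomes to the spindle equator, was at 0.670, 0.621, 1.15 and 0.633 CPM and 3.20, 9.02, 5.24 and 2.60 CPM, with no overlap between the experiments. SPC25, which was not tested, had 5, 6, 6 and 4 counts in experiment 1 and 8, 16, 9 and 1 in experiment 2.

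All 9 spindle genes had a counting interval above 1 for D4 against D0 in experiment 2 (20.3% of all genes). In experiment 1, 0 of 9 did (19.7% of all genes). ASPM (chr1:197084128-197146694), which organises spindle poles, was at 0.838, 0.931, 1.68 and 1.43 CPM in experiment 1 and at 2.33, 11.0, 7.44 and 1.26 CPM in experiment 2, the highest D4 change of the 47 in the second experiment, 2.16 on the log2 scale. Its D4 and D7 libraries of experiment 2 stood above all others. DLGAP5, a kinetochore fibre protein, was at 1.84, 2.10, 3.51 and 1.98 CPM and 1.97, 7.83, 3.65 and 1.42 CPM, with a fitted log2 fold change of 1.38 ± 0.59 at D4 (unadjusted p = 0.0479 and adjusted p = 1 in edgeR's test). KIF11, the motor that separates the poles, had D4 changes of −0.23 and 0.79, and KIF2C, the depolymerase MCAK, 0.64 and 1.32. TPX2, which activates AURKA on the spindle, had −0.03 and 0.80. For KIF15, HMMR and NUSAP1 the values were 0.27, −0.33 and −0.53 in experiment 1 and 1.06, 1.70 and 0.95 in experiment 2. CKAP2 had the smallest D4 difference of the 9 in experiment 2, 0.30.

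The genes of the central spindle and cytokinesis ranged from the largest D4 value of the set to almost none. KIF14 (chr1:200551497-200620734), a kinesin of the midbody, had the largest fitted log2 fold change of the 47 at D4, 1.96 ± 1.17, on counts from 2 to 52. It was at 0.168, 0.310, 0.611 and 0.792 CPM in experiment 1 and at 0.873, 3.88, 2.28 and 1.26 CPM in experiment 2, with each library of experiment 2 above all of experiment 1. KIF20A (chr5:138178719-138187715), which carries the passenger complex to the central spindle, was at 4.86, 4.89, 3.59 and 4.12 CPM and 3.28, 8.57, 6.46 and 0.947 CPM. D4 and D0 were level in experiment 1, and in experiment 2 the D4 to D0 ratio was 2.62 (95% counting interval 1.84 to 3.78). PRC1, which bundles the midzone microtubules, and KIF4A, its motor partner, had D4 changes of 0.04 and −0.16 in experiment 1 and 1.04 and 2.04 in experiment 2. KIF23, a subunit of centralspindlin, was at 9.22, 7.92, 10.7 and 8.0 CPM and 15.7, 18.0, 14.4 and 13.3 CPM, with a D4 change of 0.20 in experiment 2. ANLN, the anillin of the contractile ring, had D4 changes of −0.23 and 0.79. ECT2 (chr3:172750682-172821474), the exchange factor that activates RhoA at the cell equator, was at 19.9, 19.4, 31.0 and 29.2 CPM and 24.4, 38.9, 36.7 and 31.2 CPM, so that its D10 values stood above D0 in both experiments.

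After D7 medium the median member lay between its D4 and D0 levels in experiment 2, where 44 of 47 were above D0, and above D0 in experiment 1, where 36 were. A counting interval above 1 was found for 28 of 47 members in experiment 2 (21.4% of all genes) and 7 in experiment 1 (17.7%), the latter below the share of all genes. By edgeR's quasi-likelihood test (Benjamini-Hochberg adjusted) 0 members were called, and 0% of all genes, with 0 members at an unadjusted p under 0.05, and DESeq2 gave 0 adjusted and 0 unadjusted, where 4.34% and 4.24% of all genes had an unadjusted p under 0.05. The replicate block also gave 0, against 1.25% of all genes, with 4 at an unadjusted p under 0.05, against 10.6%. The median fitted log2 fold change was 0.47.

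At D10, 42 of 47 members were below D0 in experiment 2, and those of experiment 1 lay on both sides of it. The ratio of D10 to D0 had a counting interval below 1 for 25 of 47 members in experiment 2 (27.2% of all genes) and for 5 in experiment 1 (21.2%), the experiment without the library that stands apart. Both experiments put D10 below D0 for 21 of 47, against 32.3% of all genes. The lowest fitted log2 fold changes were those of CCNB2, −0.98 ± 0.47, CDC25C, −0.97 ± 0.73, and TTK, −0.90 ± 0.86, and the highest were those of KIF14, 0.93 ± 1.22, ECT2, 0.45 ± 0.33, and PTTG1, 0.43 ± 0.27. EdgeR's fit without the D10 library of experiment 2 had no replicate block, so it set D10 of experiment 1 against D0 of both experiments. In it these values were −0.43, −0.97, −1.65, 0.56, 0.40 and 0.63. None passed in edgeR's quasi-likelihood test (Benjamini-Hochberg adjusted), where the lowest adjusted p of a member was 0.719 and 0 had an unadjusted p under 0.05, while 0.29% of all genes were called. With the replicate block it was 0 members and 4.99% of all genes, with 1 member at an unadjusted p under 0.05, and DESeq2 called 0, with 0 at an unadjusted p under 0.05. Over all genes the shares at an unadjusted p under 0.05 were 7.94% in edgeR, 18.2% with the block and 7.71% by DESeq2.

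The median over the members, −0.27 on the log2 scale for D10 against D0, became −0.04 without the D10 library of experiment 2 and −0.61 without that of experiment 1. In the D10 library of experiment 2 COL1A1, the main fibrillar collagen, was at 1295 CPM, against 8694 to 14499 CPM in the other libraries, and the part of that departure in the level of the mitosis genes was not tested. Members with opposite signs at D10 included MKI67, at 1.01 and −0.89, and TOP2A, at 0.52 and −0.69, while CDK1 (−0.08 and −1.28), FOXM1 (−0.56 and −0.89) and CCNB2 (−0.32 and −1.84) were below D0 in both.

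The D4 level set against the D10 level gave the largest member median in size of the 4 comparisons made. Within experiment 2, D10 was below D4 for 46 of 47 members, and the counting interval of the ratio lay below 1 for 44 (29.6% of all genes). Within experiment 1 that interval lay below 1 for 5 (24.9% of all genes). Both experiments had D10 below D4 for 25 of 47, against 28.1% of all genes. The median change was −0.06 in experiment 1 and −1.73 in experiment 2, and the fitted median was −1.12, which became −0.79 without the D10 library of experiment 2 and −0.27 without its D4 library.

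In edgeR's quasi-likelihood test (Benjamini-Hochberg adjusted) 0 members passed for D10 against D4, with 0.00725% of all genes called, and 12 members, all lower at D10, had an unadjusted p under 0.05, against 5.7% of all genes. The lowest of these was 0.00919 for CCNB2, with a fitted log2 fold change of −1.62 ± 0.47. The others included CDK1 at −1.80 ± 0.57, PLK1 at −1.27 ± 0.43, CCNB1 at −0.85 ± 0.29, FOXM1 at −1.08 ± 0.40 and BUB1 at −1.23 ± 0.51. EdgeR's fit without the D10 library of experiment 2 had no replicate block, so it set D10 of experiment 1 against D4 of both experiments. In it these 6 values were −1.06, −1.49, −0.80, −0.53, −0.73 and −0.97. With the replicate block 0 members passed, 2.55% of all genes did, and 24 members had an unadjusted p under 0.05, against 18.3% of all genes. DESeq2 called 0 members, with 17 at an unadjusted p under 0.05, against 5.73%. DESeq2 with the replicate block, an alternative added after seeing the data, called 4 of the 47, all lower at D10, against 2.47% of all genes. These were CCNB2, with a log2 fold change of −1.66 (adjusted p = 0.0242), BIRC5, with −1.76 (adjusted p = 0.0265), CCNB1, with −0.89 (adjusted p = 0.0371), and CDK1, with −1.68 (adjusted p = 0.0432), all by DESeq2 with Benjamini-Hochberg adjustment. Without the D10 library of experiment 2 that group has 1 library, so such a fit cannot tell whether the 4 calls rest on that library alone. The effect sizes of such a fit are given with the other settings below. In edgeR's fit without that library CCNB2, CDK1 and CCNB1 were lower at D10 than at D4, by the values given above. That fit cannot tell this either, since it is not paired by experiment and keeps the D4 library of experiment 2. The 4 members called were lower at D10 than at D4 in both experiments, with log2 changes of −0.93, −0.56, −0.47 and −0.65 in experiment 1 and −2.46, −3.01, −1.29 and −2.57 in experiment 2.

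Ratios show the same sizes on a linear scale. In experiment 2 the ratio of D10 to D4 was 0.140 (95% counting interval 0.100 to 0.192) for MKI67, and in experiment 1 it was 1.99 (95% counting interval 1.45 to 2.75). For CDC20 these ratios were 0.138 (95% counting interval 0.0688 to 0.253) and 0.914 (95% counting interval 0.591 to 1.41), and for KIF20A 0.110 (95% counting interval 0.0554 to 0.200) and 0.842 (95% counting interval 0.572 to 1.24). CCNB1, counted more deeply, had 0.404 (95% counting interval 0.317 to 0.510) and 0.718 (95% counting interval 0.585 to 0.879), both intervals below 1. The members at the other end were CDC25B, with a fitted log2 fold change of 0.09 ± 0.20, and ECT2, with 0.05 ± 0.33, or 0.11 and 0.002 without the D10 library of experiment 2.

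**Figure D4:**
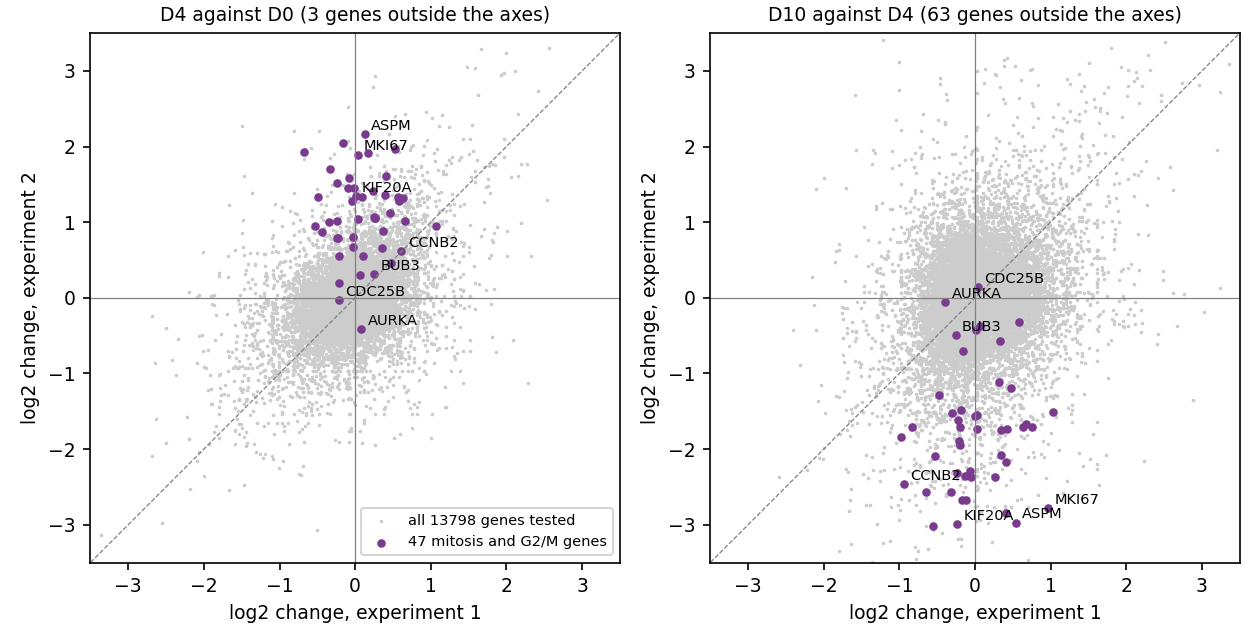
Log2 change in experiment 1 (horizontal) and experiment 2 (vertical) for D4 against D0 and D10 against D4, with all 13798 tested genes in grey and 47 mitosis and G2/M genes in purple. The dashed line marks equal changes, and 3 and 63 grey genes lie outside the axes. The purple points are spread around 0 along experiment 1 and lie mostly above 0 for D4 against D0, and mostly below 0 for D10 against D4, along experiment 2.

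Averaged over the media, the experiments also differed in level. The direction depended on the medium: the members' summed CPM was higher in experiment 2 at D4 (661 against 366) and lower at D10 (319 against 362). In the blocked fit, experiment 2 against experiment 1 had a median member difference of 0.40 on the log2 scale, against 0.0097 over all genes, and 8 of 47 members were called higher in experiment 2 and 0 lower (edgeR's quasi-likelihood test (Benjamini-Hochberg adjusted)). Of all genes 18.6% were called higher and 16.2% lower. The members' share called higher is thus near the background, and their share called lower, 0 of 47, is under it. The 8 were CENPE (2.61 ± 0.34, SE), KIF14 (2.05 ± 0.46), ASPM (1.91 ± 0.49), CENPF (1.54 ± 0.38), TTK (1.47 ± 0.30), SMC4 (1.45 ± 0.17), ANLN (0.95 ± 0.23) and KIF23 (0.78 ± 0.15). Their transcripts ran from 3723 bases and 42.3% GC for KIF23 to 10887 bases and 37.1% GC for ASPM, and CENPE had 8612 bases and 35.3% GC. Members with the highest GC content showed little difference, such as CDC25B (59.3% GC, −0.13 ± 0.10) and CDC20 (57.9%, −0.25 ± 0.38).

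Over the 47 members the difference between experiments followed transcript GC content with a Spearman rho of −0.76 and transcript length with 0.62, and over 13771 genes with −0.51 and 0.29. These are descriptions across genes that share their libraries. The D4 change of experiment 2 did not follow either, with −0.04 and 0.04 over the members and −0.06 and 0.06 over all genes. In experiment 1 the D4 change of all genes did, with 0.21 for GC content and −0.37 for length, and that of the members hardly, with −0.08 and −0.07. The part of library composition in the contrast between the experiments was not tested.

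**Figure D5:**
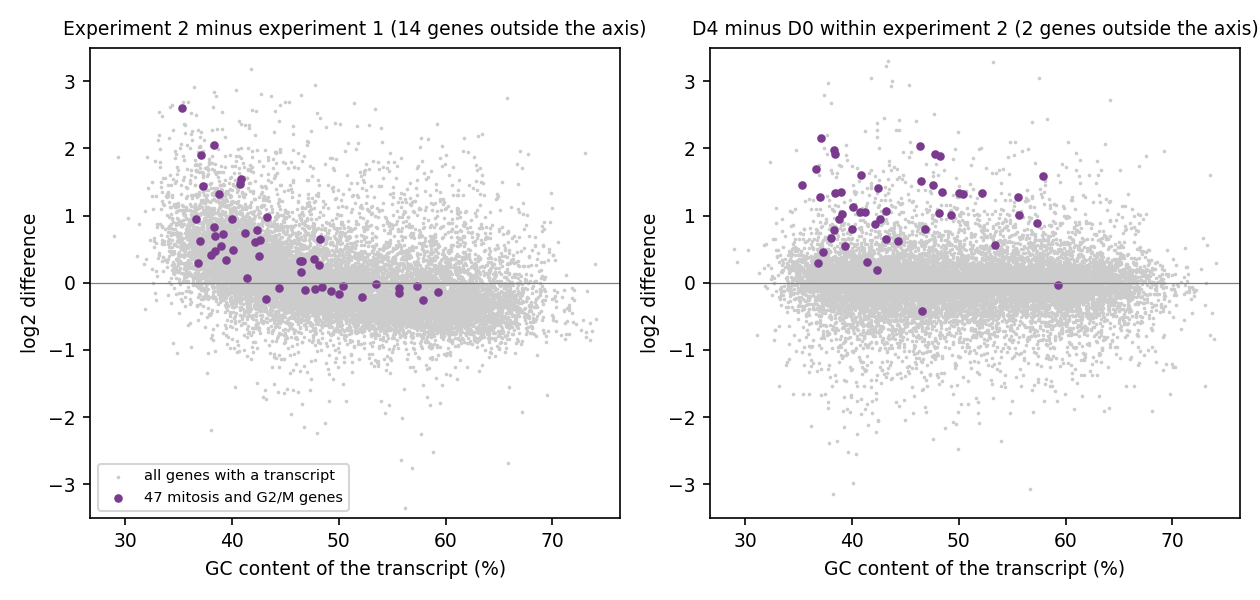
Log2 difference between experiments (left) and between D4 and D0 within experiment 2 (right) against the GC content of each gene's transcript, with all genes in grey and 47 members in purple. On the left the members fall from 2.61 at 35.3% GC to about 0 at high GC, and on the right they lie mostly above 0 over the whole range of GC content, with 14 and 2 genes outside the vertical axis.

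Further genes of the pathway, from lists beside the 48, had smaller differences. Of 71 other mitosis genes 69 were tested, and their median D4 change was −0.0003 in experiment 1 and 0.43 in experiment 2. For D10 against D4 it was 0.02 and −0.77. Counting intervals above 1 at D4 were found for 3 of 69 in experiment 1 (19.7% of all genes) and 34 in experiment 2 (20.3%). The 40 S-phase genes, which copy the DNA, had medians at D4 of 0.03 and 0.25, and −0.18 and −0.48 for D10 against D4. None of the 69 or the 40 was called in any of the 4 comparisons by edgeR's quasi-likelihood test (Benjamini-Hochberg adjusted), with or without the replicate block, nor by DESeq2. At an unadjusted p under 0.05 for D4 against D0 there were 1 of the 69 and 1 of the 40 in edgeR (2.96% of all genes), 6 and 1 with the block (8.15%) and 0 and 1 by DESeq2 (2.87%). For D10 against D4 there were 12 and 3 in edgeR (5.7%), 19 and 8 with the block (18.3%) and 9 and 3 by DESeq2 (5.73%).

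Counts of some members can hold reads of a neighbour or copy. Exons of NUSAP1 and PRC1 overlap another annotated gene on the same strand over 62.2% and 57.6% of their bases, and 13.7% of the 50-base words of KIF4A are also in KIF4B. NCAPG and SMC4 overlap genes on the opposite strand over 33.1% and 25.6%, FOXM1 over 15.9% and PLK1 over 12.5%, and whether counting used the strand is not given in the sources used here. The values of these genes are uncertain to that extent.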

How the data were processed

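Poly(A)-selected RNA of 8 libraries, 4 groups with 1 library from each of 2 independent experiments, was sequenced from TruSeq Stranded libraries. The table that the authors deposited holds raw read counts for 27696 genes, which were used as they are. The submitters' processing notes name GRCh38 (hg38), STAR 2.5 and DESeq2. The counter, annotation and strand setting are not given in the sources used here. The 8 columns of normalized values were not used. One header reads DO where D0 replicate 1 is meant.

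Genes were filtered with edgeR's filterByExpr (13798 left), scaled with TMM and tested with edgeR 4.0.16 (glmQLFit and glmQLFTest, R 4.3.3) in one fit of all libraries by group, with Benjamini-Hochberg adjustment and a threshold of 0.05. Within an experiment, log2 CPM used a prior count of 2, and the ratio of 2 libraries has an exact 95% counting interval (Clopper-Pearson, conditional on the sum), which covers counting error only, since reads are not independent molecules. Alternatives were DESeq2 1.42.0, its size factors in edgeR, scaling by total counts, no filter, a minimum of 10 counts in all libraries, a fit of only the groups compared, the experiment as a replicate block, DESeq2 with that block, also without D10 replicate 2 (both added after seeing the data), and leaving out each library. The fits were tested on simulated data.

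The replicate numbers pair the libraries, because the labels describe 2 independent experiments and deviations of same-numbered libraries from group means correlated across genes with r of 0.418 to 0.722 in all 6 pairs of groups. P-values measure only the spread between these libraries.

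Total counts ranged from 11708193 to 13395912. Gene positions are those of GENCODE 29 (GRCh38), which holds all 48 members, and promoters those of RefSeq (GRCh38.p14). Members and lists were chosen with earlier results of these data known. All 48 may be named, with values in every library for 12 chosen markers of the cycle, for any called member and for the 3 largest differences in each direction at D4, D10 and D10 against D4. BIRC5, CENPA, CENPE, DLGAP5, KIF23, SMC4, SPC25 and, of the related lists, E2F7, CDK2 and CCND2 were added after their values were seen. Of the related lists counts and medians are given. Python 3.11.15 drew the figures.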

Additional observations from a re-analysis of the deposited data

Results flagged for a closer look

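Of the 47 tested members, 6 had opposite changes in the 2 experiments in at least 1 comparison with counting intervals on either side of 1. With 1 library per medium and experiment the difference between the experiments was not tested, and groups of 2 libraries are too small to look for a library far from the others. The value given is the log2 change in experiment 2 minus that in experiment 1. For D10 against D4 it was −3.75 in MKI67, −2.46 in TOP2A, −1.43 in CKAP2, a spindle-associated protein, and −0.90 in ECT2. For D10 against D0 it was −1.89 in MKI67, −1.38 in CENPF, −1.20 in TOP2A and −1.19 in CKAP2. For D4 against D0 it was 1.36 in FOXM1, which was lower at D4 in experiment 1 (−0.35) and higher in experiment 2 (1.00).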

How the results depend on the processing

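With DESeq2 or its size factors, total counts only, the replicate block, only the groups compared, no filter or a minimum of 10 counts in all libraries, the number of members called stayed at 0 in all 4 comparisons between media, and DESeq2 with the replicate block called 4 for D10 against D4. The block kept the sign of each member median, at 0.80 for D4, 0.48 for D7, −0.23 for D10 and −0.99 for D10 against D4. Leaving out each library in turn gave member medians of −0.065 to 1.20 for D4 against D0, the lowest without D4 replicate 2, and 0.077 to 0.70 for D7, the lowest without D7 replicate 2. It gave −0.61 to −0.039 for D10 and −1.64 to −0.27 for D10 against D4. Between the experiments 8 members were called, and 17 with no filter. Without a library it was 4 to 23, the lowest without D4 replicate 2 and the highest without D10 replicate 1 or 2. Over all genes, in either direction, 4805 of 13798 were called, and 5412 of 27696 with no filter. Without D4 replicate 2 it was 2992 of 14354. Leaving out D10 replicate 1 or 2, with 5602 of 14358 and 5552 of 14168, also gave the most calls over all genes. The fewest, 2121 of 14313, came without D0 replicate 2. Total counts only moved the median of all genes between experiments from 0.0097 to 0.12 and that of the members to 0.50. Signs of named genes that turned when a library was left out had these ranges of log2 fold change. For D4 against D0 they were MKI67 −0.22 to 2.13, TOP2A −0.52 to 1.26, CENPF −0.39 to 2.21, FOXM1 −0.14 to 0.76, AURKA −0.49 to 0.16, CDC25B −0.29 to 0.042, KIF14 −0.76 to 3.57, ASPM −0.77 to 2.81, TTK −0.43 to 1.64, ECT2 −0.19 to 0.81. For D7 against D0 they were TOP2A −0.065 to 1.12, CENPF −0.17 to 2.05, KIF20A −0.18 to 0.67, CDC25B −0.19 to 0.14, CCNB2 −0.035 to 0.27, TTK −0.58 to 0.89. For D10 against D0 they were MKI67 −0.68 to 0.77, TOP2A −0.44 to 0.24, AURKB −0.56 to 0.23, BUB1 −0.55 to 0.024, CDC20 −1.66 to 0.16, CENPF −0.53 to 0.81, KIF20A −2.07 to 0.021, CDC25B −0.20 to 0.13, ASPM −0.79 to 0.67. For D10 against D4 they were MKI67 −2.07 to 0.43, TOP2A −1.32 to 0.45, CENPF −2.15 to 0.37, AURKA −0.48 to 0.027, KIF14 −1.89 to 1.69, ASPM −3.01 to 0.52, ECT2 −0.35 to 0.63. At D10 the block turned TOP2A to 0.054 and CENPF to 0.22, and DESeq2 with the block turned TOP2A to 0.076, CENPF to 0.31 and ASPM to 0.16. DESeq2 with the block and without D10 replicate 2, also added after seeing the data, leaves 1 library in D10. For that fit only effect sizes are given, for D10 against D0 and then for D10 against D4. It gave member medians of 0.30 and −0.45, and signs turned at D10 for TOP2A 0.85, CDK1 0.095, AURKB 0.24, BUB1 0.35, BUB3 0.018, CDC20 0.21, CENPF 1.25, KIF20A 0.19, ASPM 1.33, and for D10 against D4 for MKI67 0.31, TOP2A 0.40, CENPF 0.11, KIF14 0.66. Over all genes D4, D7 and D10 against D0 and D10 against D4 gave 0, 0, 40 and 1 calls, 38, 172, 688 and 352 with the block, 44, 112, 379 and 149 by DESeq2, 213, 351, 950 and 716 by DESeq2 with the block and 21, 93, 371 and 147 with no filter. For D10 and D10 against D4 they were 20 and 1 with at least 10 counts, 0 and 6 with the compared groups only, 25 and 1 with total counts only and 42 and 6 with DESeq2's size factors. The cause was not tested. A library left out leaves a group with 1 library, which is assumed to vary like the others. Between media, edgeR's fits with a library left out had no replicate block, so they compared libraries across experiments. At under 30 counts a library a member's counting error alone spans a wide ratio.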

Other observations

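The 15 genes of the anaphase-promoting complex core and FZR1 had median D4 changes of 0.09 and −0.04 in experiments 1 and 2 and of −0.21 and −0.04 for D10 against D4. The 10 cohesin genes, which hold sister chromatids together, had −0.24 and 0.10 at D4 and 0.60 and 0.02 for D10 against D4. The 18 tested regulators of the MuvB, pocket protein and E2F families had −0.02 and 0.07 at D4 and 0.12 and −0.09 for D10 against D4. Among these E2F7, a repressor made late in the cycle, was at 9.13, 17.8, 28.3 and 21.6 CPM in experiment 1 and at 9.10, 22.8, 17.7 and 9.47 CPM in experiment 2, higher at D4 than at D0 in both, and did not pass (adjusted p = 1 in edgeR's quasi-likelihood test and 0.285 with the replicate block). None of these genes was called in the 4 comparisons by edgeR's test, with the replicate block or without it.

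Of 15 D- and E-type cyclins, their kinases and CDK inhibitors, the replicate block in edgeR called 1 higher at D10 than at D0. In either direction it called 4.99% of all genes there. For D10 against D4 it called 1 higher and 1 lower (2.55% of all genes). The edgeR fit without the block called 0. DESeq2 without the block called 1 higher in each of these comparisons, where it called 379 and 149 of all genes. CDK2, the kinase of S-phase entry, was at 24.6, 25.5, 35.2 and 46.7 CPM in experiment 1 and at 22.3, 27.5, 33.3 and 97.1 CPM in experiment 2 at D0, D4, D7 and D10. Its fitted log2 fold change at D10 was 1.62 (adjusted p = 0.100 in edgeR's test and 0.0140 with the block). CDK1 at D10 was about level with D0 in experiment 1 (log2 change −0.08) and lower in experiment 2 (−1.28). CCND2, a G1 cyclin, was at 171, 244, 107 and 85.3 CPM and 39.1, 47.5, 36.1 and 25.1 CPM, with a fitted log2 fold change of −1.40 for D10 against D4 (adjusted p = 0.973 and 0.0205 with the block). The sign was the same in both experiments for CDK2 and for CCND2. The highest CDK2 value, 97.1 CPM, was that of the D10 library of experiment 2, which stands apart. Fitted values without that library are not given for either gene.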
